A study of Mus musculus with 19 samples.

Results

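The genes described here encode subunits and partners of the phagocyte NADPH oxidase and factors of cross-presentation: Cybb, Cyba, Ncf1, Ncf4, Rac2, Hvcn1, Wdfy4, Rab43 and Rab27a. They were taken by symbol from the raw count tables, and all 9 were found among the 24421 symbols. They were followed across 6 groups of sorted conventional dendritic cells of C57BL6 mouse spleen: cDC1 and cDC2, each from a line deficient for Xbp1 (Xbp1 KO), from a compound line deficient for Xbp1 and Ire1 (Xbp1-Ire1 KO) and from wild type mice (WT). Each group had 3 libraries, except cDC2 WT with 4, which makes 19 in all. The labels name no Cre driver, sex or age, and whether each replicate was its own mouse is not stated, so a p-value reflects only how far these libraries spread, in part perhaps for technical reasons. The WT libraries carried different description names: replicates 1 and 2 of both cell types were named after floxed Xbp1 and Ire1 alleles (fl-fl below), and replicate 3 of cDC1 and replicates 3 and 4 of cDC2 were named WT. WT libraries differed more across these names than within a name. In cDC1 the chi-square per gene between the counts of a pair was 71.7 and 75.0 across names and 13.6 between the fl-fl libraries. In cDC2 it was 52.3 to 69.0 across names, and 15.3 and 24.8 within a name. What the names stand for is not stated.

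The oxidase moves electrons from NADPH across the phagosome membrane and makes superoxide inside. Its catalytic subunit, encoded by Cybb, sits in the membrane with the stabilizing subunit encoded by Cyba, and it is switched on when cytosolic subunits, among them those encoded by Ncf1 and Ncf4, and the GTPase encoded by Rac2 join it. Hvcn1 encodes the voltage-gated proton channel that balances the charge the oxidase moves. In dendritic cells the oxidase is known for consuming protons in the phagosome, which slows the degradation of antigen, and the small GTPase encoded by Rab27a is known for bringing oxidase-bearing lysosome-related organelles to phagosomes. Wdfy4, a large protein with a BEACH domain, and the Golgi-associated GTPase Rab43 are both known to be needed for cross-presentation of cell-bound antigen by cDC1.

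Total counts, in units of 1e6, ran from 10.98 to 16.21 per cDC1 library and from 10.61 to 14.65 per cDC2 library. Xcr1, the chemokine receptor that marks cDC1, was 912 to 1344 CPM (counts per 1e6 counts, TMM-scaled) across cDC1 and 5.46 to 18.3 CPM across cDC2. The cDC2 receptor Sirpa was 5.57 to 67.7 CPM across cDC1 and 1220.5 to 1606 CPM across cDC2. Replicate 3 of cDC1 Xbp1 KO stood apart, with a sum of 1555 CPM (unscaled) over 15 pancreatic acinar transcripts, where the other 18 libraries did not exceed 7.13 CPM, and the genotype calls among the 9 genes that use it are also given without it. The targeted gene Xbp1 averaged 103 ± 12.6 CPM in cDC1 Xbp1 KO, 339 ± 23.9 CPM in cDC1 Xbp1-Ire1 KO and 179 ± 52.8 CPM in cDC1 WT (SD, n = 3 each), and Ern1, the gene of IRE1, averaged 31.7 ± 3.48, 62.4 ± 10.1 and 25.7 ± 3.72 CPM in the same order. In cDC2, Xbp1 averaged 46.6 ± 7.94 CPM in Xbp1 KO, 64.6 ± 10.3 CPM in Xbp1-Ire1 KO and 99.2 ± 38.3 CPM in WT, and Ern1 averaged 27.4 ± 2.22, 24.1 ± 5.36 and 25.4 ± 4.32 CPM (SD, n = 3, 3 and 4). Counts over a whole gene include transcripts that lack deleted exons, so these values do not check the knockout labels.

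The levels of each gene were compared first. Per kb of merged exons, the scale on which different genes can be compared, Cyba was the highest of the 9 genes in both wild type groups, at 615 ± 118 CPM per kb in cDC1 and 658 ± 60.1 CPM per kb in cDC2 (SD, n = 3 and 4). In cDC1 WT it was followed by Rab43 at 219.8 ± 23.5 and Wdfy4 at 216 ± 27.6 CPM per kb, which did not differ beyond their spread. The cytosolic subunits Ncf4, Rac2 and Ncf1 came next, at 80.3 ± 5.06, 77.3 ± 19.6 and 67.1 ± 17.5 CPM per kb, again within their spread. Rab27a at 4.80 ± 0.315, Hvcn1 at 2.05 ± 0.663 and Cybb at 0.977 ± 0.261 CPM per kb were the lowest. In cDC2 WT the order after Cyba was Rac2 at 144 ± 22.1, Cybb at 111 ± 4.83, Rab43 at 90.2 ± 10.4, Wdfy4 at 89.4 ± 3.27, Ncf1 at 76.3 ± 18.3 and Ncf4 at 67.9 ± 8.21 CPM per kb, with Hvcn1 at 25.0 ± 2.01 and Rab27a at 6.53 ± 1.06 CPM per kb last.

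**Figure D1:**
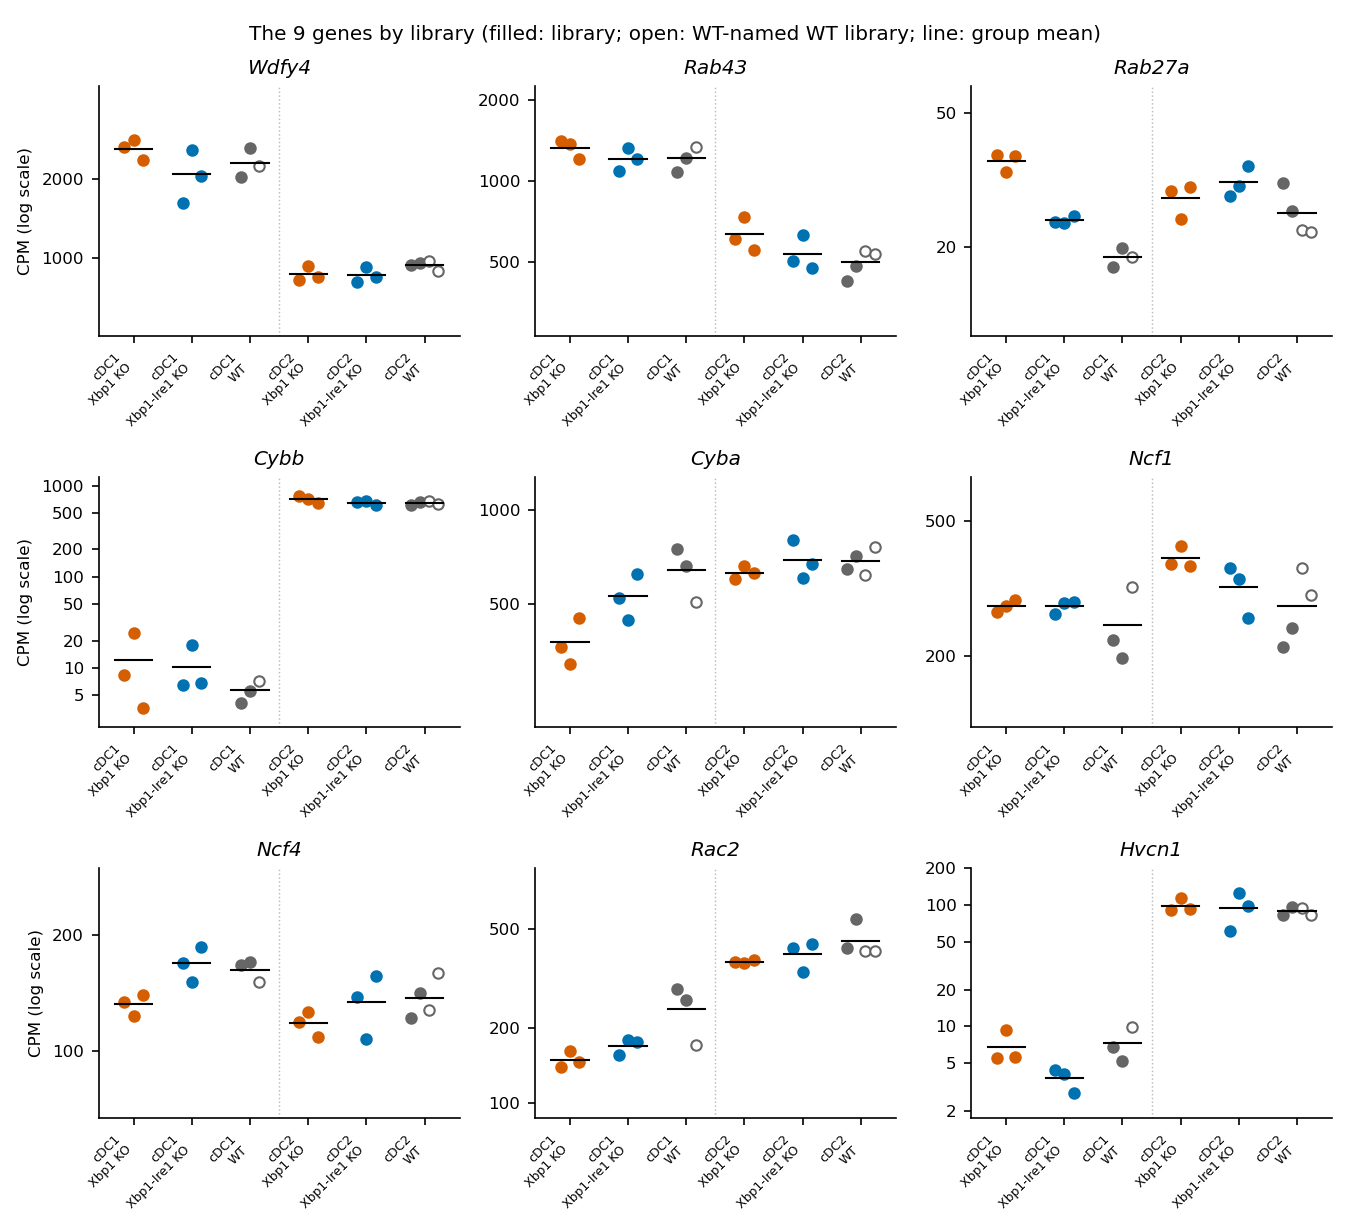
Scaled CPM on a log axis for each of the 9 genes in the 19 libraries, with Xbp1 KO, Xbp1-Ire1 KO and WT from left to right within cDC1 and then cDC2; points are libraries, open points are WT libraries named WT, and lines are group means. Cybb and Hvcn1 are separated widely by cell type, and the Rab27a points of cDC1 Xbp1 KO (33.5 to 37.6 CPM) sit above those of cDC1 WT (17.4 to 19.9 CPM).

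The membrane pair of the oxidase was unevenly expressed between the cell types. Cybb (GRCm38 chrX:9435252-9487771, minus strand) measured 4.18, 5.63 and 7.21 CPM in WT cDC1, against 618, 660.0, 674 and 621 CPM in WT cDC2. Every cDC1 library was far below every cDC2 library. Cybb was 113-fold lower in WT cDC1 than in WT cDC2 (log2 fold change −6.82 ± 0.51 SE, edgeR quasi-likelihood, Benjamini-Hochberg adjusted p = 1.18e-09 over 12185 genes), 58.8-fold lower in the Xbp1 KO and 62.1-fold lower in the Xbp1-Ire1 KO. Cyba (chr8:122424776-122432930, minus strand), in contrast, lay at 748, 662 and 507 CPM in WT cDC1 and at 648, 710.2, 619 and 758 CPM in WT cDC2. These groups overlapped, and the difference did not pass the test (log2 fold change −0.10, 95% interval −0.39 to 0.19, adjusted p = 0.639). Markers of other cells also differed between the cell types. Sums over 9 monocyte markers were 1080 to 1243 CPM in cDC2 WT and 73.7 to 102 CPM in cDC1 WT. Sums over 11 red pulp macrophage markers were 523 to 953 CPM in cDC2 WT and 218 to 369 CPM in cDC1 WT. The part of other cells in the differences between the cell types was not tested.

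Hvcn1 (chr5:122206804-122242297, plus strand) resembled Cybb in its direction. It lay at 6.83, 5.24 and 9.88 CPM in WT cDC1 and at 82.9, 96.5, 94.0 and 83.1 CPM in WT cDC2, so the groups were widely apart. The fold was 12.2 lower in WT cDC1 (log2 fold change −3.61 ± 0.26 SE, adjusted p = 1.01e-09), 14.5 lower in the Xbp1 KO and 25.2 lower in the Xbp1-Ire1 KO. Hvcn1 shares 1574 exon bases with Tctn1 on the opposite strand, and the strand setting of the counting is not given, so reads of both genes may not be told apart.

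Of the cytosolic subunits, Rac2 differed between the cell types in every genotype, and Ncf1 and Ncf4 did not pass edgeR's test in any. Rac2 (chr15:78559167-78572783, minus strand) lay at 288, 261 and 172 CPM in WT cDC1 and at 422, 550.5, 411 and 409 CPM in WT cDC2, without overlap. Its log2 fold change was −0.90 ± 0.15 SE in WT (adjusted p = 8.06e-05), −1.31 in the Xbp1 KO and −1.22 in the Xbp1-Ire1 KO. Ncf1 (chr5:134220053-134229625, minus strand) differed by −0.19 in WT (95% interval −0.53 to 0.15), and Ncf4 (chr15:78244801-78262580, plus strand) by 0.24 (−0.01 to 0.49), with overlapping libraries for both. In the Xbp1 KO, Ncf1 lay at 269.7, 280.2 and 292 CPM in cDC1 and at 372, 420.3 and 368 CPM in cDC2, without overlap (−0.46 ± 0.18 SE, adjusted p = 0.0534 by edgeR, 0.0436 by DESeq2 and 0.0415 by limma-voom). In the Xbp1-Ire1 KO, Ncf4 differed by 0.33 ± 0.14 SE with overlapping libraries (adjusted p = 0.0582 by edgeR, 0.0414 by DESeq2 and 0.0418 by limma-voom). Both calls therefore depended on the tool. Ncf1 shares 408 exon bases with Gtf2ird2 on the opposite strand, with the same limit as for Hvcn1.

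Both cross-presentation factors that are known from cDC1 were higher in cDC1 than in cDC2. Wdfy4 (chr14:32959547-33185508, minus strand) lay at 2028, 2602 and 2223 CPM in WT cDC1 and at 946, 958, 975 and 895 CPM in WT cDC2. Rab43 (chr6:87788853-87812164, minus strand) lay at 1084, 1216 and 1343 CPM in WT cDC1 and at 423, 484, 549.8 and 536 CPM in WT cDC2. No cDC1 library of either gene overlapped a cDC2 library of the same genotype. The log2 fold changes in WT were 1.28 ± 0.13 SE for Wdfy4 (adjusted p = 8.60e-08) and 1.29 ± 0.13 SE for Rab43 (adjusted p = 1.04e-07). Both genes were also called higher in cDC1 of the Xbp1 KO (1.57 and 1.07) and of the Xbp1-Ire1 KO (1.27 and 1.17). Rab43 shares 4164 exon bases with the annotated gene Gm45140 on its own strand, which the count tables do not list, so its counts may include reads of that gene.

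Rab27a (chr9:73044854-73097629, plus strand) was lower in WT cDC1, at 17.4, 19.9 and 18.6 CPM, than in WT cDC2, at 31.0, 25.6, 22.5 and 22.2 CPM (log2 fold change −0.44 ± 0.15 SE, adjusted p = 0.0205, edgeR). This call rested on single libraries: it was lost without cDC1 WT replicate 1 (−0.40, adjusted p = 0.0796) and without cDC2 WT replicate 1 (−0.33, adjusted p = 0.0724), and among the libraries named WT the difference was −0.27 (adjusted p = 0.398). In the Xbp1 KO the difference was 0.37 (adjusted p = 0.0624) and in the Xbp1-Ire1 KO −0.38 (adjusted p = 0.0565). Over the 9 genes, 2 were called higher and 4 lower in WT cDC1 than in WT cDC2, where 40.8% of all tested genes were called in either direction, 20% higher and 20.7% lower. The counts were 2 higher and 4 lower in the Xbp1 KO (39.1% of all tested genes called, 18.4% higher and 20.8% lower) and 2 higher and 3 lower in the Xbp1-Ire1 KO (42.6%, with 20.5% higher and 22.1% lower). DESeq2 and limma-voom each called 6 of the 9 genes in WT, 8 in the Xbp1 KO, with Ncf1 and Rab27a added, and 7 in the Xbp1-Ire1 KO, with Cyba and Ncf4 added. The cell types did not overlap for 6 of the 9 genes in WT (41.7% of all tested genes), 8 in the Xbp1 KO (55.8%) and 6 in the Xbp1-Ire1 KO (52.1%). Cyba was called lower in cDC1 in the Xbp1 KO, at −0.74 ± 0.16 SE (adjusted p = 0.000928). Without cDC1 Xbp1 KO replicate 3 the 6 calls in the Xbp1 KO were kept, with Cyba at −0.88 (adjusted p = 0.000545, edgeR).

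**Figure D2:**
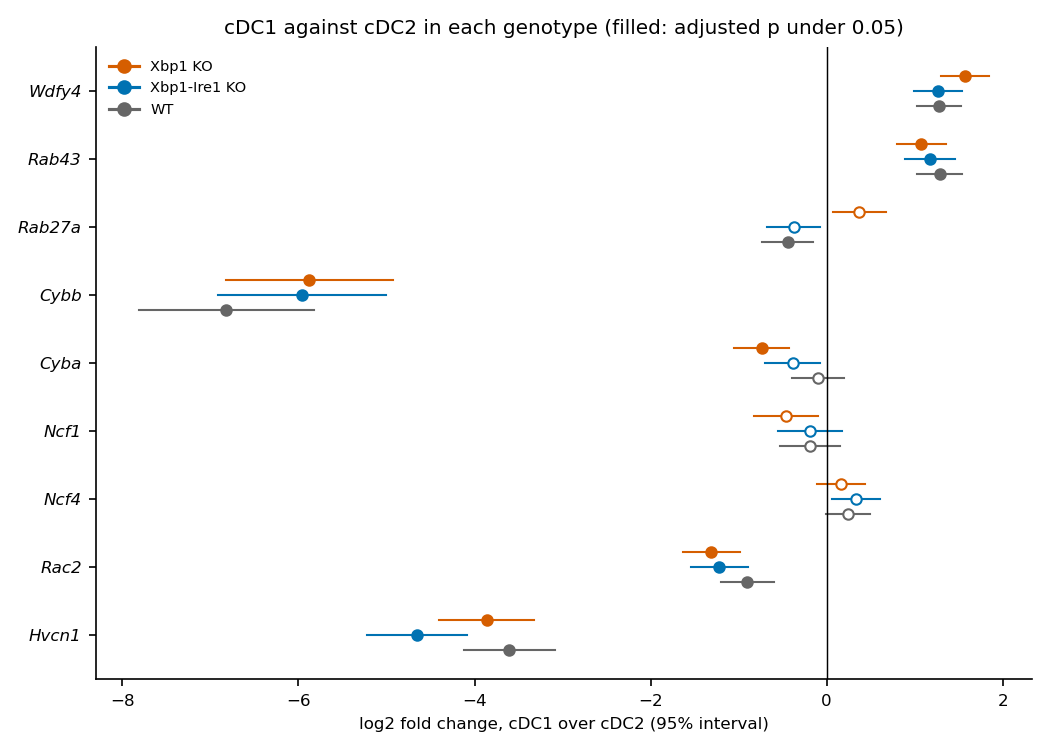
Log2 fold change of cDC1 over cDC2 for the 9 genes, with rows for Xbp1 KO, Xbp1-Ire1 KO and WT from top to bottom; points are estimates of the fit of all 19 libraries, lines are 95% intervals, and filled points passed an adjusted p of 0.05. Cybb lies at −5.88, −5.96 and −6.82 and Hvcn1 at −3.86, −4.66 and −3.61, while Wdfy4 and Rab43 lie above 1 in all 3 genotypes.

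The 250 bases before a start site are shown for the gene with the widest difference between the cell types and for a gene higher in cDC1, since both differ by lineage. RefSeq promoters of build GRCm38.p6 were held for 6 of the 9 genes, and the start nearest the GENCODE gene start was taken. Capitals mark matches on either strand to GAGGAA or GGAAGT (letters found in sites of PU.1 and other ETS factors), TGANTCA (the AP-1 core), ACGTG and CCAAT, which do not overlap here, and TGATGNAA was also searched.
Cybb, chrX:9469325-9469574, minus strand: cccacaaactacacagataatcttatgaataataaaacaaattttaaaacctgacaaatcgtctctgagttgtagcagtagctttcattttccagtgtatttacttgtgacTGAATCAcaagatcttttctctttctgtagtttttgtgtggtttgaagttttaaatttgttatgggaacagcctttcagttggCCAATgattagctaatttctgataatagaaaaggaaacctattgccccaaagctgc
Wdfy4, chr14:33185067-33185316, minus strand: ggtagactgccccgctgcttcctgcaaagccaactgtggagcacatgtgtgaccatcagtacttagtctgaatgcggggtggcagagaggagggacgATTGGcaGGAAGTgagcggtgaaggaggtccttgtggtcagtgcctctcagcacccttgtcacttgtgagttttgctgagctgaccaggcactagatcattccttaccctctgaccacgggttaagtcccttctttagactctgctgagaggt
The Cybb window held TGANTCA starting 139 bases and CCAAT starting 56 bases before the start, and the Wdfy4 window held GGAAGT starting 146 bases and ATTGG, the reverse complement of CCAAT, starting 153 bases before it. Of 32851 promoters, 6.75% held TGANTCA, 33.8% CCAAT, 19.7% GGAAGT, 23.3% GAGGAA, 16.6% ACGTG and 3.45% TGATGNAA in the same window. The Cybb start used and the Wdfy4 start used each lie inside the longer GENCODE gene. The windows of Rab27a, Rab43, Cyba and Ncf1 matched none of the 6 motifs, and a match is only a description of the letters.

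The small Cybb signal in cDC1 differed between libraries of the same genotype. The Xbp1 KO libraries had 8.40, 24.4 and 3.60 CPM and the Xbp1-Ire1 KO libraries 6.48, 17.7 and 6.84 CPM, against the WT values of 4.18, 5.63 and 7.21 CPM. Replicate 2 of each knockout stood highest, and the groups overlapped. Sirpa was highest in the same 2 libraries, at 67.7 CPM in Xbp1 KO replicate 2 and 61.1 CPM in Xbp1-Ire1 KO replicate 2, against 5.57 to 31.9 CPM in the other 7 cDC1 libraries. Transcripts of red pulp macrophages, all 11 of 11 markers with counts, summed to 902 and 722 CPM there and to 144 to 394 CPM in the other 7.

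The ratio of Cybb to Sirpa CPM was 0.263 to 0.646 over the 9 cDC1 libraries and 0.411 to 0.511 over the 10 cDC2 libraries. The ratio of Hvcn1 to Sirpa was 0.067 to 1.00 in cDC1 and 0.0464 to 0.0929 in cDC2. Markers of cDC2, 8 in number, of which 5 to 8 had counts in a cDC1 library, summed to 21.9 to 101.3 CPM in cDC1 Xbp1 KO, 22.7 to 73.3 CPM in cDC1 Xbp1-Ire1 KO and 29.3 to 58.8 CPM in cDC1 WT. What part other cells have in the Cybb counts of the cDC1 libraries was not tested.

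**Figure D3:**
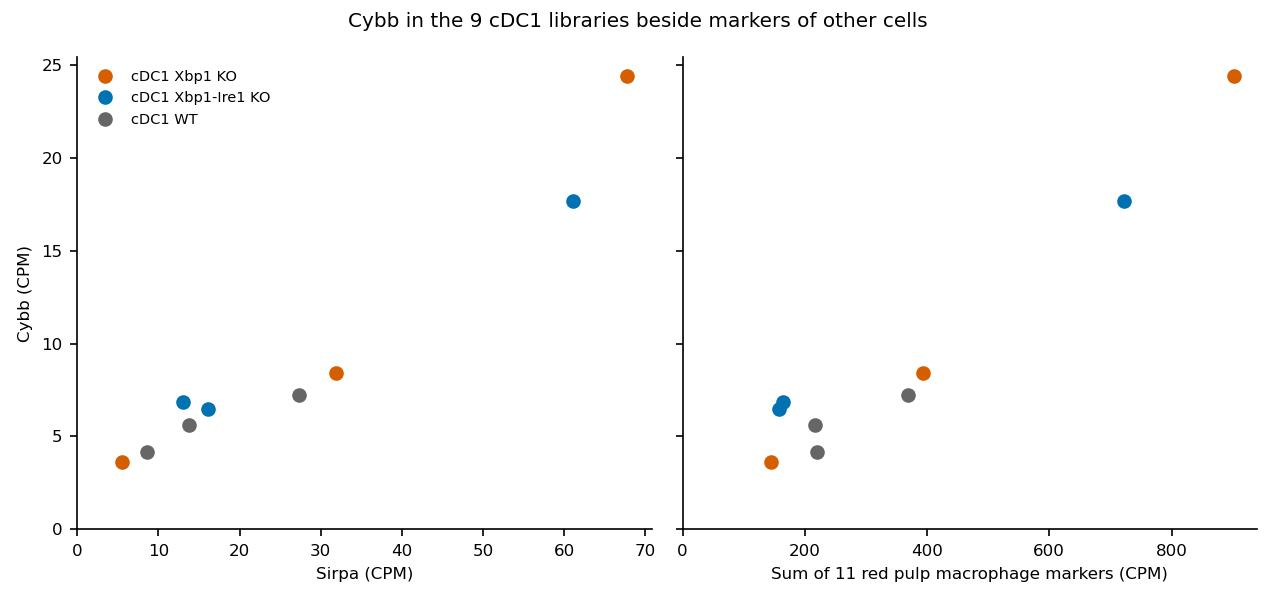
Cybb CPM in the 9 cDC1 libraries against Sirpa CPM (left) and against the summed CPM of 11 red pulp macrophage markers (right), coloured by genotype, with both axes from 0. The 2 libraries with the most Cybb, at 24.4 and 17.7 CPM, also have the most Sirpa, at 67.7 and 61.1 CPM, and the highest macrophage sums, at 902 and 722 CPM.

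The next question was how the 9 genes changed in cDC1 that lack Xbp1. By edgeR, Rab27a was called higher, and the oxidase subunit genes Cyba and Rac2 were called lower. That is 1 gene higher and 2 lower out of 9, where 11.2% of the 11353 tested genes were called in either direction, 4.28% higher and 6.91% lower. Both lower calls depended on which WT libraries were used. Against the cDC1 library named WT alone, the log2 fold changes were −0.42 for Cyba and −0.20 for Rac2. In bulk samples, fewer cells of a type and less RNA per cell cannot be told apart. Sums over markers of other cells also differed with genotype in cDC1. The summed CPM of 9 monocyte markers, 7 to 9 of them with counts, ran from 145 to 243.5 CPM in cDC1 Xbp1 KO, against 73.7 to 102 CPM in cDC1 WT, without overlap. The single markers did not move together. By edgeR, Cd14 was called higher (log2 fold change 1.77, adjusted p = 0.0134) and Ms4a4c lower (−1.31, adjusted p = 0.0499), and no other was called. For 10 B cell markers, 8 to 10 of them with counts, the sum ran from 66.4 to 82.8 CPM in cDC1 Xbp1 KO, against 91.0 to 109 CPM in cDC1 WT, also without overlap. No B cell marker was called by itself in this comparison. The part of other cells in the results was not tested.

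Rab27a lay at 37.6, 33.5 and 37.3 CPM in cDC1 Xbp1 KO, against 17.4, 19.9 and 18.6 CPM in cDC1 WT. All knockout libraries were above all WT libraries, and the spread within each group was small beside the gap. The log2 fold change was 0.94 ± 0.15 SE, or 1.92-fold (adjusted p = 0.00149, edgeR with Benjamini-Hochberg adjustment, n = 3 and 3). The call was kept in all 20 alternatives run for this comparison, with log2 fold changes of 0.91 to 1.01, also against the cDC1 library named WT alone (0.96, adjusted p = 0.0342) and without Xbp1 KO replicate 3 (0.93, adjusted p = 0.00917). Rab27a counts were 369 to 443 per cDC1 Xbp1 KO library and 204 to 254 per cDC1 WT library.

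Cyba lay at 362, 320.5 and 448 CPM in cDC1 Xbp1 KO, against 748, 662 and 507 CPM in cDC1 WT. The groups did not overlap, and the lowest WT library was the one named WT. Cyba was 1.71-fold lower (log2 fold change −0.77 ± 0.17 SE, adjusted p = 0.0131, edgeR). The call was kept in 15 of 20 alternatives. Against the library named WT alone the difference was −0.42 (adjusted p = 0.327), against both fl-fl libraries −0.90 (adjusted p = 0.000804), and it missed the threshold without cDC1 WT replicate 1, cDC1 Xbp1 KO replicate 1 or cDC1 Xbp1 KO replicate 2 (adjusted p = 0.0761, 0.0683 and 0.0837). Without cDC1 Xbp1 KO replicate 3 it was −0.91 (adjusted p = 0.0139).

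Rac2 lay at 139.7, 162 and 146 CPM in cDC1 Xbp1 KO, against 288, 261 and 172 CPM in cDC1 WT. Again the groups did not overlap and the WT library nearest the knockout was the one named WT. Rac2 was 1.62-fold lower (log2 fold change −0.70 ± 0.17 SE, adjusted p = 0.0191, edgeR), and 13 of 20 alternatives kept the call. The difference was −0.20 against the library named WT alone (adjusted p = 0.576) and −0.88 against both fl-fl libraries (adjusted p = 0.000118). It missed the threshold without cDC1 WT replicate 1 or 2 or without any 1 of the Xbp1 KO libraries (adjusted p = 0.0541 to 0.106, and 0.0601 without Xbp1 KO replicate 3).

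The remaining 6 genes were not called in cDC1 Xbp1 KO against WT. Ncf4 lay at 133, 123 and 139 CPM in cDC1 Xbp1 KO, against 167, 169 and 150.4 CPM in cDC1 WT. Its groups did not overlap, as was the case for 4 of the 9 genes and for 30.2% of all tested genes, and its log2 fold change was −0.31 ± 0.12 SE (adjusted p = 0.114, edgeR). Ncf1 lay at 269.7, 280.2 and 292 CPM in cDC1 Xbp1 KO, between the fl-fl libraries (222 and 197 CPM) and the library named WT (318 CPM) of cDC1 WT. Its log2 fold change was 0.18 (95% interval −0.12 to 0.49) with all WT libraries, 0.42 against the fl-fl libraries (adjusted p = 0.0108) and −0.18 against the library named WT (adjusted p = 0.567).

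Wdfy4 lay at 2636, 2795 and 2341 CPM in cDC1 Xbp1 KO, against 2028, 2602 and 2223 CPM in cDC1 WT, with overlap (log2 fold change 0.17, 95% interval −0.14 to 0.48). Rab43 differed by 0.12 (−0.12 to 0.36) and Hvcn1 by −0.11 (−0.81 to 0.58), also with overlapping libraries. Cybb differed by 1.08 (−0.04 to 2.21, adjusted p = 0.236), and by 0.08 (adjusted p = 0.936) once both libraries with the highest Sirpa were left out. Without these 2 libraries Rab27a kept its call (1.01, adjusted p = 0.0100), while Cyba (−0.65, adjusted p = 0.0809) and Rac2 (−0.75, adjusted p = 0.0744) did not.

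**Figure D4:**
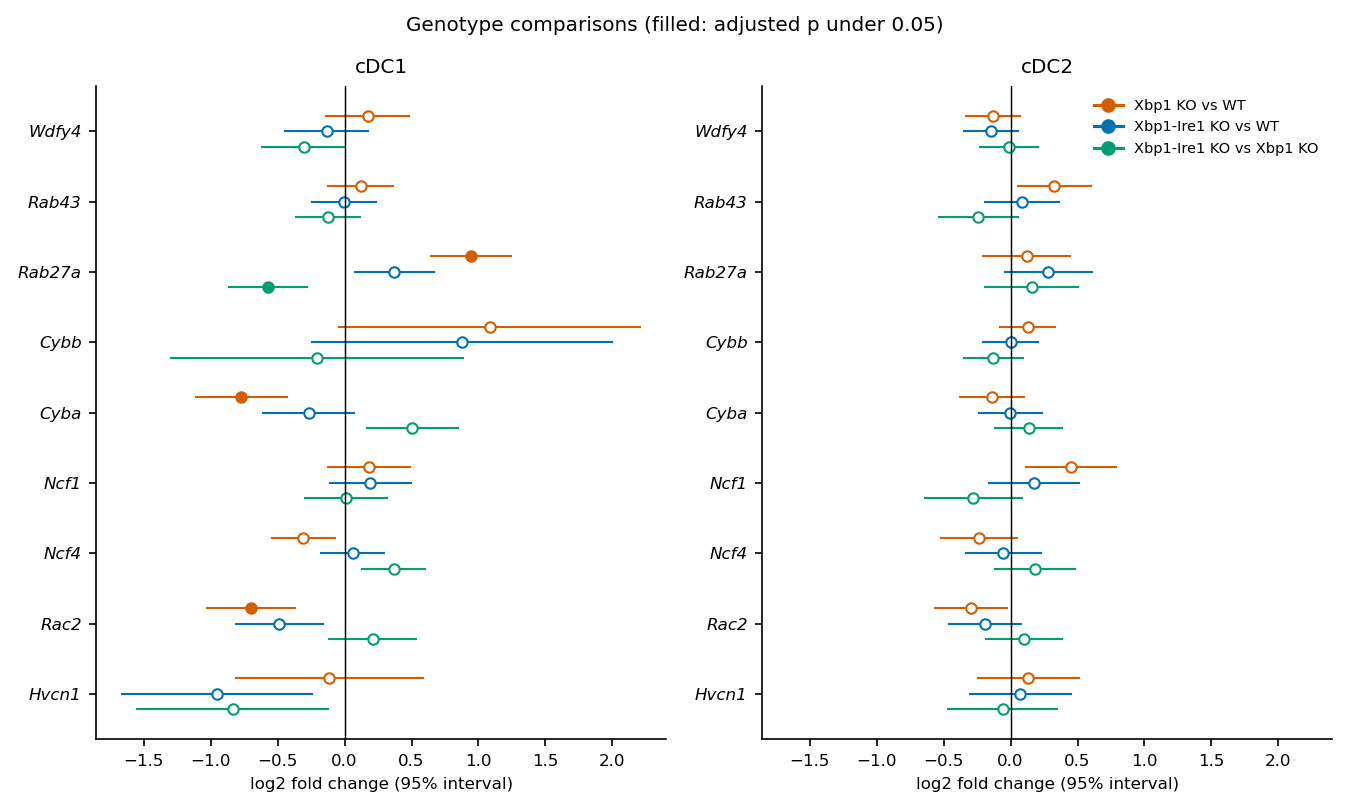
Log2 fold changes of the 9 genes in the 3 genotype comparisons, for cDC1 (left) and cDC2 (right); points are estimates, lines are 95% intervals, and filled points passed an adjusted p of 0.05. Filled points are Rab27a (0.94 and −0.57), Cyba (−0.77) and Rac2 (−0.70), all in cDC1.

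In cDC1 that lack both Xbp1 and Ire1, none of the 9 genes was called against WT, where 7.75% of tested genes were called. By unadjusted p under 0.05 edgeR gave 3 genes (Rab27a, Rac2 and Hvcn1), where 22.5% of all tested genes had such a p, and DESeq2, limma-voom and limma on the deposited log2 values each called 0. The level of Rab27a was 23.8, 23.6 and 24.7 CPM in cDC1 Xbp1-Ire1 KO, between cDC1 Xbp1 KO and cDC1 WT and without overlap with either group. Against WT its log2 fold change was 0.37 ± 0.15 SE (adjusted p = 0.157, edgeR).

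Rac2 measured 156, 180.0 and 176 CPM in cDC1 Xbp1-Ire1 KO, and the cDC1 WT library named WT (172 CPM) fell within that range. The log2 fold change was −0.49 ± 0.17 SE (adjusted p = 0.0939), −0.68 against the fl-fl libraries (adjusted p = 0.00127) and 0.00 against the library named WT (adjusted p = 0.996). Cyba measured 521, 443 and 623 CPM in cDC1 Xbp1-Ire1 KO and overlapped cDC1 WT (log2 fold change −0.27, 95% interval −0.61 to 0.07, and 0.07 against the library named WT). Hvcn1 measured 4.41, 4.09 and 2.82 CPM in cDC1 Xbp1-Ire1 KO, below every cDC1 WT library, from 42 to 68 counts per library (log2 fold change −0.95 ± 0.36 SE, adjusted p = 0.133). Groups did not overlap for 2 of the 9 genes and for 26.3% of all tested genes.

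Ncf1 measured 265, 287 and 288 CPM in cDC1 Xbp1-Ire1 KO (log2 fold change 0.19, 95% interval −0.11 to 0.50), and against the fl-fl libraries alone it differed by 0.42 (adjusted p = 0.0166). Ncf4 (0.06, −0.18 to 0.30), Wdfy4 (−0.13, −0.44 to 0.18) and Rab43 (0.00, −0.25 to 0.24) had intervals on both sides of 0. Wdfy4 was the most variable of these within the knockout, at 1619, 2569 and 2039.8 CPM.

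Sums over markers of other cells differed here too. The sum over 12 neutrophil markers, 2 to 12 of them with counts, was 28.3 to 88.2 CPM in cDC1 Xbp1-Ire1 KO, 5.91 to 17.2 CPM in the Xbp1 KO and 3.24 to 13.1 CPM in WT. Over 8 markers of plasmacytoid dendritic cells, 7 or 8 of them with counts, it was 113 to 169 CPM in cDC1 Xbp1-Ire1 KO, 57.2 to 114 CPM in the Xbp1 KO and 72.1 to 90.0 CPM in WT. Over 8 markers of NK cells, 1 to 6 of them with counts, it was 2.07 to 2.89 CPM in cDC1 Xbp1-Ire1 KO, 0.0849 to 1.36 CPM in the Xbp1 KO and 1.28 to 1.49 CPM in WT. These NK sums lie near the floor, and no gene of that list passed the count filter within cDC1. The single plasmacytoid markers did not move together in cDC1 Xbp1-Ire1 KO against WT. By edgeR, Cox6a2 was called higher (log2 fold change 7.59, adjusted p = 4.60e-07). Ccr9 (adjusted p = 0.0322) and Pacsin1 (log2 fold change −1.47, adjusted p = 0.0372) were called lower, and no other was called. The part of other cells in the results of the Xbp1-Ire1 KO was not tested.

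Set directly against the Xbp1 KO, cDC1 of the Xbp1-Ire1 KO had less Rab27a, by 1.49-fold (log2 fold change −0.57 ± 0.15 SE, adjusted p = 0.0235, edgeR). This was 1 lower of 9 genes, where 12.7% of tested genes were called, 5.52% of tested genes in the lower direction. The call was kept in 12 of 18 alternatives and missed the threshold when any 1 of the 3 Xbp1-Ire1 KO libraries or Xbp1 KO replicate 1 or 3 was left out (adjusted p = 0.0519 to 0.0904), with log2 fold changes of −0.64 to −0.56 throughout. Cyba was 0.50 ± 0.17 SE higher (adjusted p = 0.0732) and Ncf4 0.37 ± 0.12 SE higher (adjusted p = 0.0624) without passing. Both passed by DESeq2 (adjusted p = 0.0328 and 0.0327) and in a fit of the compared groups alone (adjusted p = 0.0326 and 0.0466). Groups did not overlap for Rab27a, Ncf4 and Hvcn1, 3 of 9 genes, and for 36.6% of all tested genes. Both comparisons of a knockout with WT share the same 3 cDC1 WT libraries, and both comparisons with cDC1 Xbp1 KO share its 3 libraries.

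IRE1 has an RNase that splices Xbp1 mRNA and is also known to cut other mRNAs at sites with the core CTGCAG. The letters around each such core are therefore shown for the 3 genes called in cDC1 Xbp1 KO against WT. These are the oxidase genes Cyba and Rac2, called lower, and Rab27a, called higher. Capitals mark CTGCAG, and positions are counted from 1 at the 5′ end of the longest coding transcript of GENCODE M21 (GRCm38).
Cyba, position 19, 5′ UTR: gaagtgggCTGCAGagttggac
Cyba, position 194, coding: ctctatcgCTGCAGgtgtgctc
Cyba, position 362, coding: gtcggtgcCTGCAGgcttcctc
Rac2, position 702, coding: aagcgcccCTGCAGcctgctct
Rac2, position 834, 3′ UTR: ccagttagCTGCAGaacttgcc
Rab27a, position 108, 5′ UTR: atctagcaCTGCAGggacgcaa
Rab27a, position 537, coding: gaatccacCTGCAGttatggga
Rab27a, position 1161, 3′ UTR: gtaacgcgCTGCAGctttgtat
The transcript of Cyba is short, at 744 bases, so its 3 matches make 4.03 per kb, a rate that 0.558% of 19890 genes reached, where the median was 0.727 per kb. Rac2 had 2 matches in 3038 bases (0.658 per kb) and Rab27a 3 in 3168 bases (0.947 per kb), and 54.5% and 37.3% of genes reached those rates. Wdfy4 had 15 matches in 10158 bases (1.48 per kb), and the other 5 genes had 0.631 to 1.37 per kb. At least 1 match was found in 81.9% of genes, and a match is not a site.

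In cDC2 none of the 9 genes was called in any genotype comparison, where 0.103% of tested genes were called in Xbp1 KO against WT, 0.0258% in Xbp1-Ire1 KO against WT and 0.0343% in Xbp1-Ire1 KO against Xbp1 KO. At an unadjusted p under 0.05 edgeR gave 2 genes in Xbp1 KO against WT (Rab43 and Ncf1) and 0 in both other comparisons, where 9.68% of all tested genes had such a p in Xbp1 KO against WT, 7.53% in Xbp1-Ire1 KO against WT and 8.24% in Xbp1-Ire1 KO against Xbp1 KO, and DESeq2, limma-voom and limma on the deposited log2 values each called 0 in all 3. Ncf1 lay at 372, 420.3 and 368 CPM in cDC2 Xbp1 KO, against 212, 240.5, 363 and 303 CPM in cDC2 WT. The groups did not overlap, but the 2 cDC2 WT libraries nearest the knockout were those named WT. The log2 fold change was 0.45 ± 0.17 SE (adjusted p = 0.475), and against the fl-fl libraries alone 0.74 (adjusted p = 0.0142).

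Rab43 lay at 608, 734 and 554 CPM in cDC2 Xbp1 KO, above 423, 484, 549.8 and 536 CPM in cDC2 WT (log2 fold change 0.33 ± 0.14 SE, adjusted p = 0.502, edgeR). Rac2 lay at 369, 366 and 377 CPM in cDC2 Xbp1 KO, below 422, 550.5, 411 and 409 CPM in cDC2 WT (−0.29 ± 0.14 SE, adjusted p = 0.519). Groups of these 3 genes did not overlap, which was also so for 9.77% of all tested genes. In Xbp1-Ire1 KO against WT 0 of the 9 genes had groups apart (6.19% of all tested genes), and in Xbp1-Ire1 KO against Xbp1 KO it was 1, Ncf1 (16%). Cybb lay at 776, 715 and 643 CPM in cDC2 Xbp1 KO and at 664, 677 and 611 CPM in cDC2 Xbp1-Ire1 KO, and overlapped cDC2 WT in both (0.13, 95% interval −0.08 to 0.33, and 0.00, −0.21 to 0.21). Cyba differed by −0.14 (−0.37 to 0.10) and 0.00 (−0.24 to 0.23) from cDC2 WT in the same order, and Wdfy4 by −0.13 (−0.34 to 0.07) and −0.14 (−0.35 to 0.06). Rab27a lay at 29.3, 24.3 and 30.2 CPM in cDC2 Xbp1 KO and at 28.4, 30.3 and 34.8 CPM in cDC2 Xbp1-Ire1 KO, both overlapping cDC2 WT (0.12, −0.20 to 0.45, and 0.28, −0.04 to 0.60).

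A call in cDC1 and none in cDC2 does not show that the effects differ, so the difference itself was tested. The effect of Xbp1 KO against WT on Rab27a was larger in cDC1 than in cDC2 by 0.81 ± 0.21 SE on the log2 scale (adjusted p = 0.04996, edgeR), the single call among the 9 genes, where 2.17% of tested genes were called, 0.328% with a higher effect in cDC1. This value sits at the threshold: 7 of 30 alternatives kept the call, and adjusted p ran from 0.0118 to 0.374, always with the same direction. Without cDC1 Xbp1 KO replicate 3 it was 0.79 (adjusted p = 0.106, edgeR). For Cyba the difference was −0.64 ± 0.22 SE (adjusted p = 0.163) and for Rac2 −0.41 ± 0.22 SE (adjusted p = 0.463), neither of them called. Cyba passed in 2 alternatives, without cDC1 WT replicate 3 (−0.78, adjusted p = 0.0423) and with a block for the replicate number in the description name (−0.88, adjusted p = 0.0370), and Rac2 in none. For Xbp1-Ire1 KO against WT, 0 of 9 genes were called (2.23% of tested genes), with 1 at an unadjusted p under 0.05 (Hvcn1, −1.05 ± 0.36 SE, adjusted p = 0.170), beside 12.5% of all tested genes, and DESeq2 and limma-voom called 0. For Xbp1-Ire1 KO against Xbp1 KO edgeR called 0 (2.14% of tested genes), with 2 at an unadjusted p under 0.05, beside 13.2% of all tested genes, limma-voom called 0 and DESeq2 called 1.

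Other genes of the same pathways were read from lists of related genes. Of 21 tested partners of the oxidase, 1 rose and 1 fell in cDC1 Xbp1 KO against WT, where 11.2% of all tested genes were called, 4.28% higher and 6.91% lower. The gene that rose was Prkcb, a protein kinase C that phosphorylates the Ncf1 product (0.56 ± 0.15 SE, adjusted p = 0.0314, edgeR). In cDC1 Xbp1-Ire1 KO against WT, Arhgdib, which encodes an inhibitor that holds small GTPases such as Rac2 in the cytosol, rose (0.80 ± 0.12 SE, adjusted p = 0.00129) and Pik3cd, a PI 3-kinase catalytic subunit, fell (−0.65 ± 0.12 SE, adjusted p = 0.00497). The list's median log2 fold change in cDC1 was 0.14 in Xbp1 KO and −0.02 in Xbp1-Ire1 KO, beside −0.02 and 0.01 over all tested genes. Shares called over all tested genes were 7.75% in Xbp1-Ire1 KO against WT and 12.7% in Xbp1-Ire1 KO against Xbp1 KO, for this list and those that follow.

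Between the cell types, 4 of the 21 partners were higher and 12 lower in WT cDC1 than in WT cDC2, where 20% of all tested genes were higher and 20.7% lower. The lower ones included Prkcb (−1.77 ± 0.16 SE, adjusted p = 1.99e-08, edgeR), Arhgdib (−1.18) and Pla2g4a (−1.68), the cytosolic phospholipase. The median over the list was −0.69, beside −0.04 over all tested genes.

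Of 20 tested enzymes that handle superoxide and peroxide, 0 rose and 4 fell in cDC1 Xbp1 KO against WT, beside 4.28% and 6.91% of all tested genes. The 4 were Gpx1 (−0.80 ± 0.15 SE, adjusted p = 0.00534, edgeR), a glutathione peroxidase, the peroxiredoxins Prdx1 (−0.63) and Prdx5 (−0.60), and the glutathione reductase Gsr (−0.50). In Xbp1-Ire1 KO against Xbp1 KO, Gpx1 (0.53), Gpx4 (0.67), Prdx1 (0.45) and Prdx5 (0.52) were higher and Gclc, a subunit of the enzyme that starts glutathione synthesis, was lower (−1.12 ± 0.23 SE, adjusted p = 0.00746). Against WT, Gclc (−1.47 ± 0.23 SE, adjusted p = 0.00172) and Gsr (−0.67) fell in cDC1 Xbp1-Ire1 KO. In WT, 12 of 21 tested enzymes were higher and 3 lower in cDC1 than in cDC2 (20% and 20.7% of all tested genes), with the thioredoxin Txn1 at 2.28 ± 0.14 SE (adjusted p = 9.66e-11) and Gclc at 3.10 ± 0.21 SE (adjusted p = 2.35e-10).

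Of 27 tested factors with other roles in cross-presentation, 0 were higher and 4 lower in cDC1 Xbp1 KO against WT, beside 4.28% and 6.91% of all tested genes. They were the neonatal Fc receptor gene Fcgrt (−0.92 ± 0.13 SE, adjusted p = 0.000444, edgeR), the lysosomal thiol reductase Ifi30 (−0.93 ± 0.17 SE, adjusted p = 0.00349), and the SNARE genes Vamp8 (−0.49) and Sec22b (−0.51), of which Sec22b is known for bringing endoplasmic reticulum proteins to phagosomes. In cDC1 Xbp1-Ire1 KO against WT 0 were higher and 4 lower. Apol7c, whose product is known to open phagosomes in mouse cDC1, averaged 183 ± 55.9 CPM in cDC1 Xbp1-Ire1 KO and 969 ± 128 CPM in cDC1 WT (SD, n = 3 each; −2.40 ± 0.24 SE, adjusted p = 4.84e-05). The secreted DNase gene Dnase1l3 fell by 1.47 on the log2 scale (adjusted p = 0.000297), and Ifi30 (−0.71) and Sec22b (−0.55) were also lower. In WT, 12 of the 27 were higher and 4 lower in cDC1 than in cDC2, again beside 20% and 20.7% of all tested genes.

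Among 6 tested genes whose products work with Rab27a, 2 rose and 0 fell in cDC1 Xbp1 KO against WT, beside 4.28% and 6.91% of all tested genes. They were Myo5a, the myosin motor that Rab27a recruits to melanosomes (0.93 ± 0.19 SE, adjusted p = 0.00780, edgeR), and Chm, the Rab escort protein that prepares Rab GTPases for lipid attachment (0.53 ± 0.14 SE, adjusted p = 0.0251). Chm also rose in cDC1 Xbp1-Ire1 KO (0.52 ± 0.14 SE, adjusted p = 0.0337). Of 9 tested relatives of Wdfy4, a list of genes with a BEACH domain and of Wdfy1 and Wdfy2, Lyst, which controls the size of lysosome-related organelles, rose in cDC1 Xbp1 KO (0.72 ± 0.17 SE, adjusted p = 0.0195), and 0 fell. In Xbp1-Ire1 KO against Xbp1 KO, Lyst (−0.65) and Nbeal1 (−1.05) were lower. Several of these calls missed the threshold without cDC1 Xbp1 KO replicate 3, though their log2 fold changes moved little when that library was left out. Without it, in Xbp1 KO against WT, edgeR no longer called Prkcb (0.59, adjusted p = 0.0602), Prdx5 (−0.59, adjusted p = 0.0609), Gsr (−0.43, adjusted p = 0.144), Sec22b (−0.48, adjusted p = 0.0904) or Chm (0.56, adjusted p = 0.0508). In the same setting Prdx5 was no longer called in Xbp1-Ire1 KO against Xbp1 KO (0.51, adjusted p = 0.0851).

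In cDC2, edgeR called 0 of the 86 tested genes of these 5 lists in each genotype comparison. At an unadjusted p under 0.05 there were 9 in Xbp1 KO against WT, 7 in Xbp1-Ire1 KO against WT and 2 in Xbp1-Ire1 KO against Xbp1 KO, beside 9.68%, 7.53% and 8.24% of all tested genes in the same order.

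By Pearson's r of log2 CPM over the 9 cDC1 libraries, the genes most like Rab27a were Zdhhc23 (0.981), Camk2d (0.950) and Gm12522 (0.944), those most like Cyba were Gpx1 (0.989), Psmb2 (0.984) and Psmb4 (0.977), and those most like Rac2 were Mgat1 (0.980), Ctsz (0.980) and Laptm5 (0.975). They were the highest of all tested genes over libraries that share genotype groups, and the values are descriptions.

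Called genes within 2 Mb of each gene's start were also counted. In cDC1 Xbp1 KO against WT, 2 of 23 tested neighbours of Wdfy4 (8.70%), 2 of 18 of Rab27a (11.1%), 7 of 45 of Cyba (15.6%), 1 higher and 9 lower of 73 of Rac2 (13.7%) and 17 of 84 of Ncf4 (20.2%) were called, beside 11.2% of all tested genes, and the other 4 genes had 6.67% to 14.3%. The 17 called neighbours of Ncf4 and the 7 of Cyba were all lower, and the windows of Ncf4 and Rac2 overlap.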

How the data were processed

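Per the labels' protocols, RNA of sorted splenic dendritic cells was sequenced. The submitters' processing notes list the mm10 genome with limma 3.42.2, SAMtools 0.1.19, TopHat2 2.1.0, Trimmomatic 0.35 and FastQC 0.11.4. How reads were assigned to genes, and with which strand setting, is not given in the sources used here. The authors deposited raw counts per gene symbol, in a table for each cell type, and log2 values that they had normalized, which served only in an alternative.

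The deposited counts were tested with edgeR 4.0.16 (R 4.3.3) by its quasi-likelihood test after TMM scaling. Genes passed filterByExpr at its minimum count of 10 and total of 15. P-values were adjusted over every tested gene by Benjamini-Hochberg, with calls at an adjusted p below 0.05. Genotypes were fitted within a cell type, and contrasts between cell types, or of genotype effects between them, in a fit of all 19 libraries. SE is the size of the log2 fold change over the root of F, and 95% intervals are ± 1.96 SE. The factor 1.96 is a normal quantile. With so few libraries, these intervals are narrower than the F test itself would give. CPM (counts per 1e6 counts) was TMM-scaled over the 19 libraries, and CPM per kb used merged exons of GENCODE M21 (GRCm38), which held 23334 of 24421 symbols. The fits were tested on simulated data.

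Alternatives covered other tools (DESeq2 1.42.0 and limma-voom with limma 3.58.1), DESeq2 size factors, limma on deposited log2 values, looser and stricter filters, the compared groups only, replicate blocks, WT libraries by name, and leaving out single libraries. A fit without both cDC1 libraries highest in Sirpa was added after seeing the data, as was the acinar list. The 9 genes, the related lists and the tests were chosen with earlier results of these data known. All 9 genes were named throughout, with up to 4 called genes of smallest adjusted p from each related list and the 3 genes most alike to each gene called between genotypes. Genes withheld for evaluation are left out of the text. Plots used matplotlib 3.10.9 under Python 3.11.15.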

Additional observations from a re-analysis of the deposited data

Results flagged for a closer look

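Within cDC2 WT, Rac2 replicate 2 stood at 550.5 CPM while the other 3 libraries lay at 409 to 422 CPM, so that its gap to the nearest made up 0.911 of the group's range. Chance marks about 1 in 20 groups of this size in this way. The Rac2 difference between cDC1 and cDC2 kept its call in all 30 alternatives run for WT, those without this library included. Some of the 30 left out a knockout library, which is in neither WT group and acts only through the shared fit.

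The effect of Xbp1 KO against WT on Rab27a differed between cDC1 and cDC2 by 0.81 on the log2 scale in the test of the difference (adjusted p = 0.04996 by edgeR with Benjamini-Hochberg adjustment). Only 7 of 30 alternatives kept this call. Rab27a was higher than every WT library in 3 of 3 cDC1 Xbp1 KO libraries, while the cDC2 groups overlapped. Over all tested genes, the same groups did not overlap for 30.2% in cDC1 and for 9.77% in cDC2.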

How the results depend on the processing

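No call among the 9 genes reversed its direction under any alternative run. Of single values of called genes, 551 stayed called and 45 lost the call, and of values not called, 1956 stayed so and 58 gained a call. These totals include alternatives that left out a library of a group not compared, which acts only through the shared fit. The 3 calls in cDC1 Xbp1 KO against WT became 5 with only fl-fl WT libraries, 1 with only the library named WT and 1 without both cDC1 libraries highest in Sirpa. The 0 calls in cDC1 Xbp1-Ire1 KO against WT became 2 with only fl-fl libraries (Ncf1 and Rac2), and the 0 in cDC2 Xbp1 KO against WT became 1 (Ncf1). The 1 call in cDC1 Xbp1-Ire1 KO against Xbp1 KO became 2 without a filter, 3 by DESeq2, 3 with the compared groups only and 0 without the libraries highest in Sirpa. The 1 call for the difference between cell types of Xbp1 KO against WT became 0 without a filter, by limma-voom, with the compared groups only, with only libraries named WT and without those highest in Sirpa. The difference of Xbp1-Ire1 KO against Xbp1 KO gave 1 by DESeq2 in place of 0. Causes were not tested.

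With each library left out in turn, calls numbered 1 to 5 for cDC1 Xbp1 KO against WT, 0 to 2 for Xbp1-Ire1 KO against WT and 0 to 3 for Xbp1-Ire1 KO against Xbp1 KO, and 0 to 0 in cDC2. They numbered 5 to 6 between the cell types in WT, 6 to 8 in the Xbp1 KO, 5 to 6 in the Xbp1-Ire1 KO, and 0 to 1, 0 to 0 and 0 to 0 for the 3 differences. With only WT libraries named WT, a separate alternative, cDC1 WT held 1 library, and its spread was taken from the other groups.

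The values do not settle whether replicate numbers pair the samples within a cell type. Of 9 same-numbered pairs in each, 3 correlated above 0.1, beside 3 of 18 other pairs in cDC1 and 2 of 24 in cDC2. Between the cell types 4 of 9 same-numbered pairs of a genotype did, among them all 3 WT pairs (0.132 to 0.258). These 3 pairs also share the name fl-fl or WT. WT pairs of the same name ran from 0.0488 to 0.271 whatever their number, and WT pairs across names from −0.312 to −0.105. The WT pairs therefore cannot tell pairing by number from a difference by name. The replicate block kept the 6 WT calls between the cell types. With the replicate block the 1 call for the difference between cell types became 0 (Rab27a 0.87, adjusted p = 0.0503). With the number in the description name it stayed 1, but the called gene was Cyba (−0.88, adjusted p = 0.0370) and no longer Rab27a (0.88, adjusted p = 0.194). Between the cell types, edgeR with that block also called Ncf1 in the Xbp1 KO (−0.42, adjusted p = 0.0413). In the Xbp1-Ire1 KO it also called Cyba (−0.50, adjusted p = 0.0112) and Ncf4 (0.43, adjusted p = 0.0333). Cybb and Hvcn1 in cDC1 rest on 42 to 294 counts per library, so small differences were not detectable there.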
